A study of Mus musculus with 40 samples.

Results

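The libraries described here are the 12 bulk RNA-seq libraries of the right kidney taken 48 h after surgery, of 40 samples in the series, and they were chosen by their labelled tissue, assay and time. Each library is 1 male C57BL/6 mouse aged 8-12 weeks. Surgery took out the left kidney of 6 mice (unilateral nephrectomy, UNx) and was a sham operation without removal in 6 others. All mice had isoflurane anaesthesia, saline and buprenorphine at surgery. Polyadenylated RNA of a flash frozen cross-section of the kidney was made into stranded TruSeq libraries and read in 150 bp pairs on a NovaSeq, so every cell type of the organ is mixed in each value. The labels put all 12 libraries in batch 2, with the 12 libraries of 72 h, and the 12 bulk libraries of 24 h in batch 1. The question of the comparison is how the RNA of the remaining kidney differs from that of a kidney that still has its partner. UNx replicates 1 to 5 and UNx replicate 6 are described apart, because replicate 6 has another library profile.

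When a kidney is lost, the remaining one receives more blood and filtrate, and its tubules grow. Most of this growth is enlargement of cells, above all of the proximal tubule, the segment that takes back most of the filtrate and that is packed with mitochondria. A smaller part is cell division, which begins in the first days after surgery. Growth of a cell calls for ribosomes, membrane lipids and mitochondrial proteins, and division for the machinery of DNA copying and the mitotic spindle.

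No value pairs a UNx mouse with a sham mouse, and p-values measure the spread between mice. The libraries held 18.9 to 20.9 M (units of 1000000) estimated counts in sham, 16.4 to 21.4 M in UNx replicates 1 to 5 and 19.0 M in replicate 6. Mitochondrially encoded genes took 14.0% to 15.5% of the counts in the 6 shams, 25.8% to 26.4% in UNx replicates 1 to 5 and 15.2% in replicate 6. A profile score, taken over 271 pseudogenes and set so that the mean sham of 72 h is 0 and the mean sham of 24 h is 1, gave the same split. It lay between −0.0119 and 0.0937 in the shams and between 0.656 and 0.729 in UNx replicates 1 to 5, and it was 0.0404 in replicate 6. All 6 UNx libraries of 24 h scored 0.680 to 0.892, and those of 72 h −0.0172 to 0.119. UNx replicates 1 to 5 thus resembled the 24 h libraries in both measures although they carry the label of batch 2. In both, replicate 6 resembled the shams of its own time. The share of counts from pseudogenes split otherwise. It was 4.85% to 5.62% in the shams, 6.55% to 7.46% in replicates 1 to 5 and 6.20% in replicate 6. At 24 h it was 3.59% to 5.76%. The labels number replicates 1 to 5 as mice 5, 6, 7, 8 and 11, and replicate 6 as mouse 15. The shams are mice 12, 13, 14, 16, 63 and 64. Whether the labels of UNx replicates 1 to 5, their sequencing or their quantification lie behind the profile was not tested. Every 48 h value that rests on these 5 libraries carries this limit. Within 48 h no sham shares the profile of replicates 1 to 5, so this profile and nephrectomy cannot be told apart in those 5 libraries. Defining markers of nephron segments were present in each group. The summed level of the proximal tubule S1 markers was 7518 to 9268 CPM (counts per 1000000, with the library size scaled by TMM factors) in sham, 8468 to 11373 in replicates 1 to 5 and 8638 in replicate 6. Adrenal cortex markers summed to at most 1.11 CPM in the shams and 0.615 in the UNx libraries. Adipocyte markers ranged from 0.656 to 342 CPM across the 12 libraries, with 1.59 in replicate 6, and their part in the results was not tested.

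**Figure D1:**
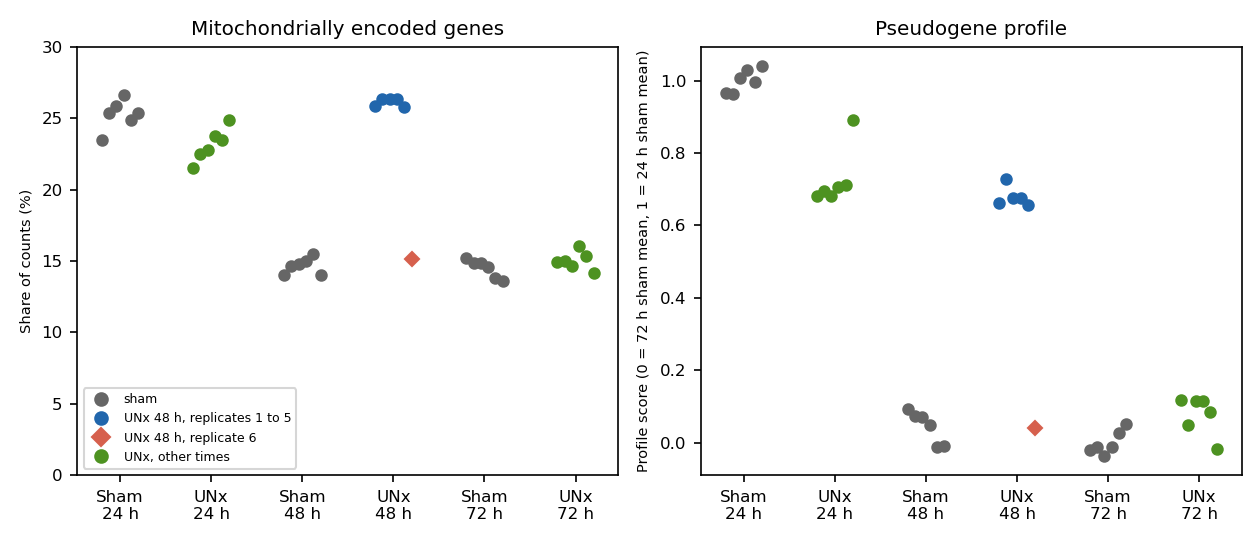
Share of counts from mitochondrially encoded genes (left, in %) and pseudogene profile score (right, no unit) in the 36 bulk libraries by group; each point is 1 library. The 5 UNx libraries of 48 h numbered 1 to 5 lie between 25.8% and 26.4% and the diamond, UNx replicate 6, lies at 15.2%, beside the shams.

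Many genes differed between UNx and sham at 48 h. Of 14280 genes tested with edgeR's quasi-likelihood test, 4696 (32.9%) passed a Benjamini-Hochberg adjusted p of 0.05, 2412 higher (16.9%) and 2284 lower (16%) in UNx. When replicates 1 to 5 alone stood for UNx, 6059 genes passed (42.4%), 2921 higher (20.5%) and 3138 lower (22%). UNx replicate 6 against the 6 shams gave 0 genes (0%) by edgeR. Before adjustment 1822 (12.8%) had a p under 0.05, 989 higher (6.93%) and 833 lower (5.83%). DESeq2's Wald test called 112 (0.784%) in replicate 6 and limma voom 1 (0.007%). A single library can borrow its spread only from the other groups, so a missing call in replicate 6 does not show that a gene stayed at its sham level. Replicates 1 to 5 differed from replicate 6 in 1743 genes (12.2%), 806 higher (5.64%) and 937 lower (6.56%). An edgeR fit that held the profile score constant called 0 genes between UNx and sham, and 2109 had an unadjusted p under 0.05. The score differs between the groups, so such a fit also takes up part of any difference that nephrectomy makes.

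Replicate 6 is the UNx library of 48 h whose profile score lies within the range of the shams. Its differences and those of replicates 1 to 5 use the same 6 shams, so their values are given side by side and no likeness between them is read as a result. Over all tested genes the level of replicate 6 lay inside the sham range for 55.4%. Of all tested genes 22.8% had replicate 6 above every sham and 21.8% below. All 6 UNx libraries lay above all 6 shams in 887 genes (6.21% of those tested) and below them in 687 (4.81%).

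**Figure D2:**
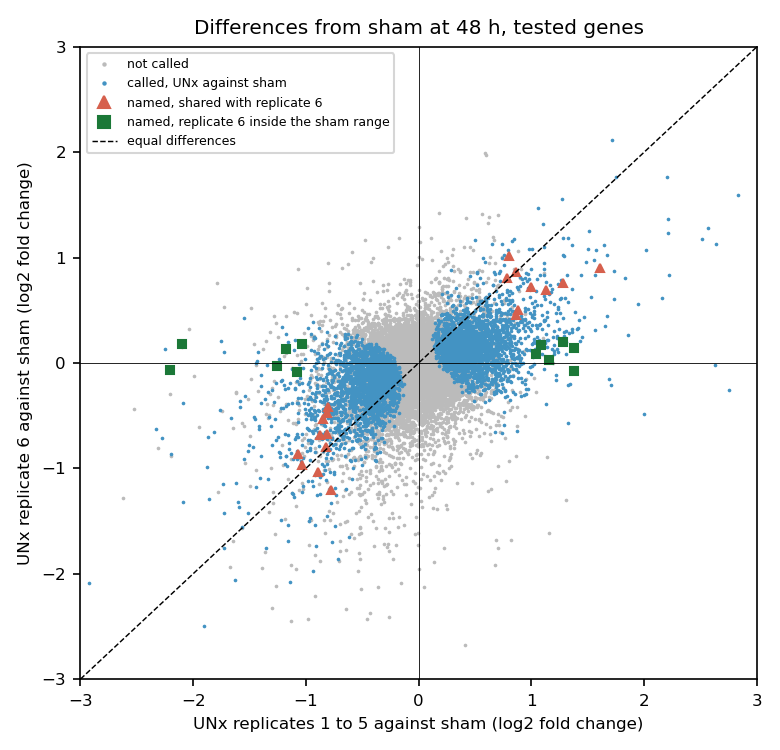
Log2 fold change against the 6 shams in UNx replicates 1 to 5 (horizontal) and in UNx replicate 6 (vertical) for the tested genes, with genes called in the comparison of all 6 UNx libraries in blue; 53 genes lie outside the axes, and both axes share the shams. Triangles mark named genes that replicate 6 shares and squares named genes whose level in replicate 6 lies inside the sham range, chosen for these positions.

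A first group of named genes was chosen for being called, for not overlapping between the groups and for reaching at least 0.5 of the replicates 1 to 5 difference in replicate 6. Such genes, at a mean log2 CPM of at least 3, numbered 368 that rose and 301 that fell. Predicted genes, pseudogenes and mitochondrially encoded genes were passed over in these counts. The largest differences among the genes that remained are described here. Their likeness in replicate 6 is what chose them and is given as a description. Cdca3 (ENSMUSG00000023505), a protein that helps start mitosis, lay at 2.97 to 7.74 CPM in sham with a median of 4.33. It was at 16.6, 15.6, 18.1, 9.42 and 10.2 CPM in UNx replicates 1 to 5 and at 8.62 in replicate 6. Its log2 fold change was 1.51 (SE 0.242, edgeR adjusted p 0.000768), and all 6 UNx libraries lay above all shams, by little in replicate 6. Cycs (ENSMUSG00000063694), the electron carrier cytochrome c, lay at 132 to 150.5 CPM in sham and at 376, 303, 254, 332 and 283 in replicates 1 to 5. Replicate 6 had 229 CPM, and the log2 fold change was 1.06 (SE 0.103, edgeR adjusted p 0.000346). The lowest UNx library was thus well above the highest sham.

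Slc16a6 (ENSMUSG00000041920), a transporter of ketone bodies and taurine, had 7.14 to 13.6 CPM in sham, 18.6 to 27.8 in replicates 1 to 5 and 15.8 in replicate 6. It rose by 1.21 (log2, SE 0.174, edgeR adjusted p 0.00047). Acy3 (ENSMUSG00000024866), an aminoacylase that splits acetylated amino acids, had 1144 to 1454 CPM in sham, 1594 to 3308 in replicates 1 to 5 and 2066 in replicate 6. UNx replicate 3 was the lowest of these and replicate 4 the highest, and the log2 fold change was 0.95 (SE 0.143, edgeR adjusted p 0.000564). Lsm4, a part of the ring that binds spliceosomal and decaying RNA, rose by 0.82 (log2, SE 0.0887), and Nhp2, a protein of the particles that modify ribosomal RNA, by 0.79 (SE 0.124). Nhp2 had 48.4 CPM in replicate 6 and 37.0 to 62.2 in the other UNx libraries, so replicate 6 lay inside the range of the others. Scand1 at 0.87, Angptl7 (an angiopoietin-like secreted protein) at 0.84 and Dnajc4 (a member of the DnaJ chaperone family) at 0.80 completed the reported rises of this group.

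Among the genes that fell, Ahnak (ENSMUSG00000069833), a very large scaffold protein beneath the cell membrane, lay at 76.9 to 117 CPM in sham with a median of 102. It was at 31.8, 54.3, 57.6, 48.2 and 48.1 CPM in UNx replicates 1 to 5 and at 55.4 in replicate 6. Replicate 6 was therefore inside the range of the other UNx libraries, and replicate 1 stood below them. Plau (ENSMUSG00000021822), the urokinase plasminogen activator, lay at 293 to 556 CPM in sham, at 152 to 212 in replicates 1 to 5 and at 197 in replicate 6. Its log2 fold change was −1.04 in replicates 1 to 5 (SE 0.153) and −0.97 in replicate 6 (SE 0.289). Abca1 (ENSMUSG00000015243), the exporter of cholesterol to apolipoproteins, had 32.0 to 44.6 CPM in sham, 14.8 to 29.1 in replicates 1 to 5 and 16.5 in replicate 6. It fell by 0.84 on the log2 scale (SE 0.141, edgeR adjusted p 0.000936), and only replicate 4 was lower than replicate 6.

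Calcrl (ENSMUSG00000059588), the receptor of calcitonin gene-related peptide and adrenomedullin, had 15.1 to 19.0 CPM in sham, 6.88 to 11.8 in replicates 1 to 5 and 10.6 in replicate 6. In nuclei of 2 sham kidneys of 24 h its highest class was the endothelial class EC2 of the authors' annotation, with 618 and 443 CPM. Lnpep (ENSMUSG00000023845), an aminopeptidase that also binds angiotensin IV, had 91.2 to 106 CPM in sham, 51.6 to 64.3 in replicates 1 to 5 and 73.8 in replicate 6. Replicate 6 lay between the groups, and the log2 fold change was −0.73 (SE 0.087, edgeR adjusted p 0.000346). The other reported falls were Trf, the iron carrier transferrin, at −0.92, Gsn, the actin-severing gelsolin, at −0.82, Klhl21 at −0.79, Igip at −0.79 and Bmf, a pro-apoptotic BH3-only protein, at −0.75. In a mixed tissue a lower level can come from fewer cells of a type or from less RNA per cell, and these cannot be told apart.

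A second group was chosen because replicates 1 to 5 differed from sham and from replicate 6 while replicate 6 lay inside the sham range. Under the same limits on level and kind of gene, this held for 317 genes that were higher and 300 that were lower. Rpl10 (ENSMUSG00000008682), a protein of the large ribosomal subunit, had 105 to 122 CPM in sham, 34.3, 18.5, 22.3, 19.3 and 29.9 in replicates 1 to 5 and 109 in replicate 6. Rpl22l1 (ENSMUSG00000039221), a relative of the ribosomal protein Rpl22, had 14.7 to 22.3 CPM in sham, 3.96 to 4.61 in replicates 1 to 5 and 20.6 in replicate 6. Replicates 1 to 5 lay far below sham for both genes, close together for Rpl22l1 and more spread for Rpl10, and replicate 6 stood among the shams. Hcfc1r1 (ENSMUSG00000023904), a regulator of the host cell factor HCF-1, went the other way. It had 31.7 to 40.7 CPM in sham, 94.9, 90.6, 87.9, 98.7 and 91.9 in replicates 1 to 5 and 33.8 in replicate 6. Myl12b, a myosin light chain, Rps26, Rpl28, Fxyd5 and Slc51b, a subunit of the bile acid and steroid exporter, were also higher in replicates 1 to 5, by 1.04 to 1.38 on the log2 scale. Bok, Snrpg, Tmsb4x and Rpl24 were lower there. Over the 12 genes the log2 differences of replicate 6 from sham ran from −0.09 to 0.20. Many ribosomal protein genes have near-identical processed copies, among which the counting can split reads, so their counts are uncertain.

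**Figure D3:**
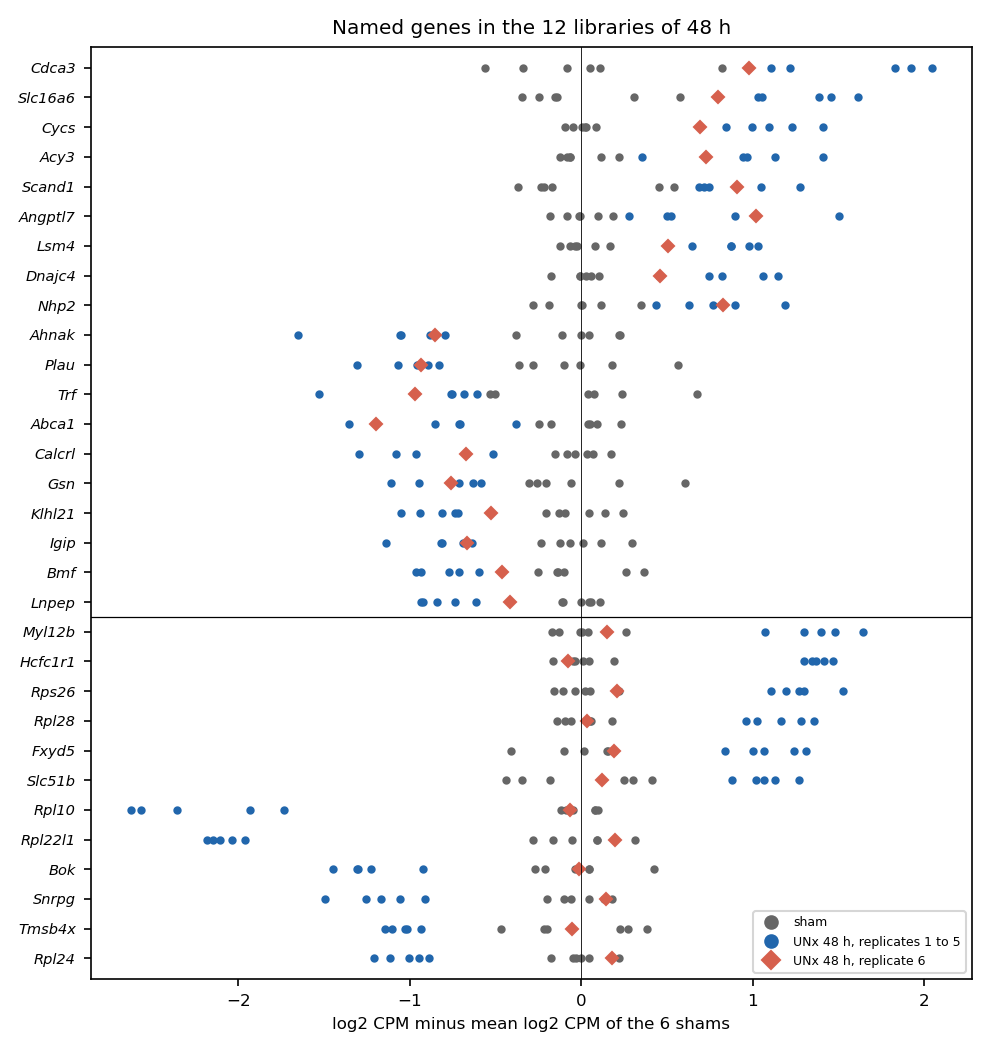
Level of each named gene in the 12 libraries of 48 h, as log2 CPM minus the mean log2 CPM of the 6 shams (horizontal), with genes in rows. Above the line are genes chosen for being shared with UNx replicate 6 (diamonds), and below it genes chosen because replicate 6 lies among the shams while replicates 1 to 5 lie apart.

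At 72 h the genes were measured again in 12 other mice, in libraries of the same labelled batch. Sham and UNx profile scores lay closer together there than at 48 h, at −0.0358 to 0.0523 in sham and −0.0172 to 0.119 in UNx. The UNx median of 0.0991 was still above the sham median of −0.0112. The part of this shift in the values of 72 h was not tested. Of the 669 genes of the first kind 596 had the same sign at 72 h and 21 were called in that direction, and of the 617 genes of the second kind 414 had the same sign and 3 were called. Over all called genes of 48 h, 3553 of 4679 had the same sign. At 72 h 249 of 14556 genes were called (1.71%). There Cdca3 was higher by 1.24 (log2, edgeR adjusted p 0.012) and Plau stood at −0.59 (edgeR adjusted p 0.014). Cycs was at 0.27 (adjusted p 0.132) and Ahnak at −0.12 (adjusted p 0.759). Rpl10 was at 0.11 and Hcfc1r1 at 0.09, and neither was called.

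Genes of mitosis were higher in the remaining kidney. Of 28 members tested, 15 rose and 0 fell (53.6%, against 16.9% of all genes), with log2 fold changes of 0.76 to 1.50. The median over the 28 was 0.87, against −0.04 over all tested genes. It was 0.89 in replicates 1 to 5 and 0.58 in replicate 6, and replicate 6 lay above the sham mean for 28 of 28. Over all tested genes the median log2 fold change of replicate 6 was −0.03. The members that rose were Ube2c, Tpx2, Ccnb2, Plk1, Birc5, Nusap1, Aurka, Kif20a, Aurkb, Ccna2, Ttk, Prc1, Cdca8, Mki67 and Kif4, which include cyclins, spindle kinases and motor proteins. Ube2c (ENSMUSG00000001403), the enzyme that marks cyclins for destruction at the end of mitosis, had 1.39 to 3.44 CPM in sham. It was at 6.08, 6.50, 8.48, 4.42 and 3.82 CPM in replicates 1 to 5 and at 4.16 in replicate 6. Its groups did not overlap, and its log2 fold change was 1.50 (SE 0.249, edgeR adjusted p 0.000887). Tpx2, which builds spindle microtubules, went from 2.59 to 5.85 CPM in sham to 6.08 to 14.4 in replicates 1 to 5 and 6.16 in replicate 6, with a log2 fold change of 1.27 (SE 0.241). Between replicates 1 to 5 and replicate 6, 0 of the 28 differed at an edgeR adjusted p under 0.05, against 12.2% of all genes. At 72 h the median was 1.23 and 25 of the 28 were called, 13 of them among the 15 of 48 h. Without sham replicate 4, the sham with the highest Cdca3 and Ube2c, 23 members were called.

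Of 30 members of DNA replication and nucleotide supply 3 rose (10%) and 0 fell, a share of rises below the 16.9% of all tested genes. At 72 h 9 were called, and the median was 0.14 at 48 h and 0.30 at 72 h. The count was 8 without sham replicate 4, 6 without UNx replicate 4 and 7 without UNx replicate 6. Tk1, the thymidine kinase, had 4.75 to 9.76 CPM in sham, 14.0, 12.1, 15.2, 8.91 and 7.78 in replicates 1 to 5 and 8.11 in replicate 6. The groups overlapped, with a log2 fold change of 0.80 (SE 0.214, edgeR adjusted p 0.0115). Tyms, which makes thymidylate, was at 0.33 (adjusted p 0.0168) and Mcm2, a subunit of the replicative helicase, at 0.34 (adjusted p 0.0366). Among G1 cyclins, Myc and inhibitors of cyclin-dependent kinases 6 of 20 rose (30%) and 0 fell. E2f1, a transcription factor of S-phase genes, had a log2 fold change of 0.87 (adjusted p 0.00622) and Ccne2, cyclin E2, of 1.02 (adjusted p 0.0257), a call lost without sham replicate 5, UNx replicate 1 or UNx replicate 3. Of this list 3 were called without sham replicate 3, and 2 when UNx replicate 1, 2 or 3 was left out. The list of tubulins and stathmin had 9 of 14 higher (64.3%, against 16.9% of all genes) and 0 lower, and 6 of those 9 were called at 72 h. The median of the list was 0.62 in replicates 1 to 5 and 0.16 in replicate 6, which lay above the sham mean for 9 of the 14. Tuba1c had 65.0 to 78.5 CPM in sham, 103 to 124 in replicates 1 to 5 and 94.5 in replicate 6, which lay above every sham. Tuba4a rose by 0.60 (log2, SE 0.0768, edgeR adjusted p 0.000346). Of the tubulin members 12 of 14 fall in the shortest of 4 bins of genes by exon length, whose share of calls is given further down.

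Promoter sequences are shown for mitosis genes because 15 of them rose together at 48 h. In replicate 6 alone 2 of the 28 had an unadjusted p under 0.05. RefSeq windows on GRCm38.p6 of 300 bases around the annotated start, on the gene's strand, were matched for 11 of the 15 called members. The letters searched were CCAAT or its reverse complement ATTGG, known as the CCAAT box, and TTTGAA or TTCAAA, the core of the cell cycle genes homology region. The same 9 of the 11 windows (81.8%) held both, where the first was in 37.9% and the second in 18.1% of the 27025 windows of all genes, 1 per gene. The E2F letters TTTCGCGC and TTTGGCGC, on either strand, were in 0 of the 11, and in 0.318% and 0.537% of all windows. These are matches of letters and do not show binding. The 3 members with the lowest p that hold both are printed 5′ to 3′ with the matches in capitals, and in Ube2c a CCAAT and an ATTGG share bases.
Ube2c, chr2:164769679-164769978, plus strand: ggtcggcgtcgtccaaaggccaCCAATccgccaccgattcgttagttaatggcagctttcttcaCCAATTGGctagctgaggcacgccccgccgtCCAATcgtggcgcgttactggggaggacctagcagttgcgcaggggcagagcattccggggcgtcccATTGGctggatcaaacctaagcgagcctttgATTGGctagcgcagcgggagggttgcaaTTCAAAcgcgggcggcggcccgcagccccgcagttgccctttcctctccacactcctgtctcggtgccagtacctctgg
Ccnb2, chr9:70421505-70421804, minus strand: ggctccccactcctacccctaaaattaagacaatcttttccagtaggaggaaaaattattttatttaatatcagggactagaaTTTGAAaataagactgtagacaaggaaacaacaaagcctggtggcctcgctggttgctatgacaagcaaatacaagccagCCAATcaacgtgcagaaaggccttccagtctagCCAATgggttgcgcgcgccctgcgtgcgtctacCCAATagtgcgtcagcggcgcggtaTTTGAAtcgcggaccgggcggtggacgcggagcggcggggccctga
Plk1, chr7:122159185-122159484, plus strand: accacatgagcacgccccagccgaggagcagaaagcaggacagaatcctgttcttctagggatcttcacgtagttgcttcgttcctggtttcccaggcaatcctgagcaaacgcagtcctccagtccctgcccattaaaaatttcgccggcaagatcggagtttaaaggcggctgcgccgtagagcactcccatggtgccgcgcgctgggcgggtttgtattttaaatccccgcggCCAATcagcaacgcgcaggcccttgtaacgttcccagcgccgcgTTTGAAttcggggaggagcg

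Mitochondrially encoded genes split the UNx libraries. Of 13 members 9 rose (69.2%, against 16.9% of all genes) and 2, mt-Nd4l and mt-Nd3, fell (15.4%, near the 16% of all genes). The median log2 fold change was 1.29 in replicates 1 to 5 and 0.16 in replicate 6, and 8 of the 13 differed between the 2 kinds of library, against 12.2% of all genes. mt-Nd1 (ENSMUSG00000064341), a subunit of respiratory complex I, lay at 11174 to 13216 CPM in sham and at 40314, 36497, 36468, 39703 and 34678 in replicates 1 to 5. Replicate 6 had 15221 CPM, above every sham but far below its group. The difference was 1.65 (log2) in replicates 1 to 5 (SE 0.0839, edgeR adjusted p 7.39e-08) and 0.35 in replicate 6 (SE 0.144, unadjusted p 0.0305). mt-Atp6, a subunit of ATP synthase, was at 2.22 and 0.83 in the same order. These genes move with the mitochondrial share and the profile score of the libraries, and the part of either in the result was not tested. Nuclear copies of mitochondrial sequence can share their reads.

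The nuclear genes of the respiratory chain differed from this pattern. Of 74 members 29 rose (39.2%, against 16.9% of all genes) and 2 fell (2.7%, against 16%), and replicate 6 lay above the sham mean for 74 of 74. In replicate 6, 42 of the 74 had an unadjusted p under 0.05, all higher, against 6.93% of all tested genes. The median was 0.30 in replicate 6, 0.05 in replicates 1 to 5 and 0.10 at 72 h. In replicates 1 to 5 alone 29 were higher and 22 lower, and 29 of the 74 differed from replicate 6, again against 12.2% of all genes. Without replicate 6 the list had 53 calls in place of 31. Beside Cycs, the member with the lowest p was Cox8a, a small subunit of cytochrome oxidase. It had 302 to 353 CPM in sham, 443 to 586 in replicates 1 to 5 and 470.0 in replicate 6, so the groups were apart. Its log2 fold change was 0.63 in replicates 1 to 5 and 0.51 in replicate 6 (SE 0.0718 and 0.123). The 2 members that fell in the comparison of all 6 UNx libraries, Ndufa2 and Atp5e, were not lower in replicate 6.

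Mitochondrial ribosomal proteins, which make the mitochondrially encoded proteins, had 35 of 75 members higher (46.7%, against 16.9% of all genes) and 2 lower (2.67%, against 16%). Replicate 6 lay above the sham mean for 74 of 75. Mrps15 had 16.3 to 19.7 CPM in sham, 34.6, 33.8, 30.3, 35.6 and 33.3 in replicates 1 to 5 and 23.7 in replicate 6, between the groups. Mrpl34 rose by 0.71 (log2, SE 0.082), with 0.41 in replicate 6. The median of the list was 0.17 in replicates 1 to 5, 0.25 in replicate 6 and 0.08 at 72 h. None of its members was called at 72 h, nor any of the respiratory chain. In the shortest of 4 bins of genes by exon length stood 56 of the 74 respiratory chain members and 43 of the 75 mitochondrial ribosomal ones, and 27.2% of that bin rose.

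Cytosolic ribosomal proteins went both ways. Of 78 members 17 rose (21.8%) and 23 fell (29.5%), where 16.9% and 16% of all genes did. Between replicates 1 to 5 and replicate 6, 30 differed, where 12.2% of all genes did. In replicates 1 to 5 alone 17 were higher and 34 lower, and replicate 6 lay above the sham mean for 66. The median was −0.17 in replicates 1 to 5, 0.08 in replicate 6 and −0.06 at 72 h. Rps26 had 70.7 to 92.0 CPM in sham, 169.7 to 227 in replicates 1 to 5 and 90.9 in replicate 6. Rpl29 rose by 0.81 (log2, SE 0.126), with 0.91 in replicates 1 to 5 and 0.19 in replicate 6. Among the 28 genes of ribosome assembly 4 rose (14.3%) and 6 fell (21.4%). Tsr1, which takes part in the maturing of the small subunit, was at −0.52 (adjusted p 0.000681), while Nhp2 rose.

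Transport genes of the proximal tubule also went both ways. For this and the lists that follow, the shares over all tested genes are 16.9% higher and 16% lower. Of 31 members 9 rose (29%) and 4 fell (12.9%), with a median of 0.06, and 8 in all were called without sham replicate 5 or without UNx replicate 1. Aqp1 (ENSMUSG00000004655), the water channel of proximal tubule and thin limb, had 808 to 957 CPM in sham, 628, 597, 557, 570.1 and 637 in replicates 1 to 5 and 686 in replicate 6. All UNx libraries were below all shams, with a log2 fold change of −0.54 (SE 0.0721, edgeR adjusted p 0.000353). Aqp1 was highest in a thin limb class of the sham nuclei. Thin limb markers summed to 925 to 1653 CPM in sham, 741 to 931 in replicates 1 to 5 and 968 in replicate 6, and 2 of 9 fell. Aqp1 is itself 1 of these 9 markers and 1 of the 2 that fell. Its sham median of 903 CPM is most of the sum, whose sham median was 1169, so the sum is no separate measure of the thin limb. The part of thin limb content in the value of Aqp1 was not tested. Amn, which holds the endocytosis receptor cubilin at the membrane, rose by 0.43 (SE 0.0731). Slc22a6, the organic anion transporter OAT1, Slc13a3, a carrier of dicarboxylates, and Slc34a1, a phosphate transporter, also rose. Lrp2, the endocytosis receptor megalin, Slc34a3 and Slc6a19 fell. Markers of the S2 segment summed to 3303 to 3772 CPM in sham, 4505 to 6644 in replicates 1 to 5 and 4886 in replicate 6, and 4 of 6 rose. The 4 were Slc22a6 and Slc13a3, already named among the transport genes, Cyp2e1 and Fxyd2. Fxyd2 alone had a median of 1071 CPM in sham and 2334 in replicates 1 to 5, and 1312 in replicate 6. Of the S1 markers 1 of 7 rose and of the S3 markers 0 of 7.

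Of 30 genes of distal sodium, potassium, calcium and water transport 7 rose (23.3%) and 1, Trpm6, fell (3.33%), but replicate 6 lay above the sham mean for 4 of the 30. Cldn10, a claudin of the thick ascending limb, had a log2 fold change of 0.54 (adjusted p 0.0027) and Cldn16, which lets magnesium and calcium pass, of 0.44 (adjusted p 0.00742). The list had 5 calls without sham replicate 5, UNx replicate 1 or UNx replicate 5. Of 16 acid-base genes of intercalated cells 4 fell (25%) and 1, Car2, rose (6.25%). Slc26a4, the chloride and bicarbonate exchanger pendrin, had 38.7 to 54.8 CPM in sham, 26.4 to 33.7 in replicates 1 to 5 and 39.6 in replicate 6. It fell by 0.60 on the log2 scale (SE 0.114, edgeR adjusted p 0.00195), and replicate 6 lay inside the sham range. Kit, a receptor tyrosine kinase whose highest class in the sham nuclei was the type A intercalated cell, was at −0.50 (adjusted p 0.00447) and was also called at 72 h.

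In the renin-angiotensin-aldosterone list 3 of 12 rose (25%) and 4 fell (33.3%). Ace, the angiotensin-converting enzyme, had 221 to 284 CPM in sham, 304 to 373 in replicates 1 to 5 and 288 in replicate 6. It rose by 0.41 (log2, SE 0.086, edgeR adjusted p 0.00327), with all UNx libraries above all shams. The genes of IGF, insulin and FoxO signalling had 7 of 30 lower (23.3%) and 3 higher (10%). Foxo4 fell by 0.47 (SE 0.0914), where replicates 1 to 5 stood at 20.5 to 22.7 CPM and replicate 6 at 29.0, inside the sham range of 26.5 to 33.9. Insr, the insulin receptor, fell by 0.34 (SE 0.0785) and lay at 78.1 CPM in replicate 6, below the lowest sham at 88.8. Of 12 genes of the EGF family 1 rose (8.33%, below the share over all genes) and 2 fell (16.7%, near it). Errfi1, a feedback inhibitor of the EGF receptor, was called higher, and Egf and Erbb4 lower. Of 11 genes of the JAK-STAT5 axis Stat5a was called higher and Jak2 lower (9.09% each, below the shares over all genes), at 0.28 and −0.20. Each of these calls was lost when any of several single libraries was left out, down to 0 of the 11 without sham replicate 4.

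Of 22 genes of gluconeogenesis and glycolysis 7 rose (31.8%) and 1, Pfkl, fell (4.55%), with 14 calls without UNx replicate 6. Gapdh (ENSMUSG00000057666), a glycolytic enzyme, had 1789 to 2148 CPM in sham, 4439.6, 3569, 3527, 3922 and 3984 in replicates 1 to 5 and 2396 in replicate 6. Its log2 fold change was 1.00 in replicates 1 to 5 and 0.30 in replicate 6, and the 2 kinds of library differed (edgeR adjusted p 0.00951). Gpi1, glucose phosphate isomerase, was at 0.70 and 0.03 in the same order. Of 25 genes of amino acid and glycine metabolism 5 rose (20%, near the share over all genes) and 0 fell, with replicate 6 above the sham mean for 22 and 9 calls without it. Shmt2, which makes glycine in mitochondria, had 151 to 189.5 CPM in sham, 272 to 369 in replicates 1 to 5 and 221 in replicate 6. It rose by 0.83 (log2, SE 0.108, edgeR adjusted p 0.000346), and replicate 6 was above every sham. Fah, the last enzyme of tyrosine breakdown, rose by 0.44 (SE 0.0882).

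Cholesterol synthesis and its targets had 6 of 25 higher (24%) and 2 lower (8%). The median was 0.18 in replicates 1 to 5 and −0.02 in replicate 6, which lay above the sham mean for 11 of the 25. Nsdhl, a sterol dehydrogenase, had 57.0 to 61.3 CPM in sham, 87.9 to 112 in replicates 1 to 5 and 78.6 in replicate 6, all above the shams. Mvd, mevalonate diphosphate decarboxylase, rose by 0.54 (SE 0.0827), with 45.3 CPM in replicate 6 against at most 39.8 in sham. Of 28 genes of fatty acid oxidation 3 rose (10.7%) and 4 fell (14.3%), both below the shares over all genes, with 4 calls without sham replicate 5, UNx replicate 4 or UNx replicate 5. Ppara, the transcription factor that drives that pathway, fell by 0.55 (SE 0.119), while Cpt2, which completes the import of fatty acids into mitochondria, rose by 0.39 (SE 0.0863). Of 13 androgen-responsive genes 3 rose (23.1%) and 0 fell, and replicate 6 lay above the sham mean for 13. Hsd17b11, a steroid dehydrogenase, had 182 to 262 CPM in sham, 232 to 434 in replicates 1 to 5 and 386 in replicate 6. UNx replicate 3 alone lay within the sham range, and without it 7 of the 13 were called, against 5 without UNx replicate 1.

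Of 21 targets of NRF2, the factor that answers oxidants, 7 rose (33.3%) and 0 fell, with 4 calls without UNx replicate 1. Gstm1, a glutathione transferase, had 402 to 552 CPM in sham, 744 to 1076 in replicates 1 to 5 and 572 in replicate 6. Hmox1, heme oxygenase, had 20.9 to 26.5, 31.8 to 48.8 and 30.4 CPM in the same order, and replicate 6 was above every sham for both genes. In the unfolded protein and ATF4 list 6 of 24 rose (25%) and 0 fell, with Manf at 0.89 (adjusted p 0.0012) and Calr at 0.49 (adjusted p 0.00349), though Calr in replicate 6 was inside the sham range. Without replicate 6, 10 of the 24 were called. Of 15 glucocorticoid-responsive genes 2 rose and 2 fell (13.3% each, below the shares over all genes). Mt1, a metallothionein, had 28.4 to 51.0 CPM in sham, 64.6 to 84.4 in replicates 1 to 5 and 38.4 in replicate 6. Of 16 immediate early genes 3 rose (18.8%) and 2 fell (12.5%), near the shares over all genes, with Jund at 0.57 and Fosl2 at −0.67, and 3 were called without sham replicate 1, 2 or 3 or UNx replicate 3, 4 or 5. The hypoxia list had 2 of 18 higher (11.1%) and 1 lower (5.56%), both below those shares, with Adm at 0.45 and Pdk1 at −0.23. It had 1 call without sham replicate 6 or UNx replicate 2 and 6 calls without UNx replicate 6.

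Of 16 tested genes of tubular injury and repair 0 rose and 2 fell (12.5%, below the 16% of all genes). S100a6 fell by 1.30 on the log2 scale (SE 0.396, edgeR adjusted p 0.0226) and Spp1, osteopontin, by 0.55 (SE 0.175). Their groups overlapped, with Spp1 at 795 to 1493 CPM in sham and at 559 to 1032 in replicates 1 to 5. Neither was called when UNx replicate 1 or UNx replicate 4 was left out. S100a6 was highest in the urothelial class of the sham nuclei. Urothelium markers summed to 9.74 to 85.3 CPM in sham, 3.94 to 37.8 in replicates 1 to 5 and 11.6 in replicate 6, with 0 of 6 called and Krt13 at 0 in all 12 libraries. Their part in the value of S100a6 was not tested. Of 15 genes of the plasminogen and protease list 3 fell (20%) and 2 rose (13.3%), near the 16% and 16.9% of all genes. Plau, Plgrkt and Plat fell, and Hpn, the membrane protease hepsin, and Prss8 rose. Of 30 genes of collagens and matrix 7 fell (23.3%, against 16% of all genes) and 0 rose, and replicate 6 lay above the sham mean for 2. Dcn, decorin, had 27.4 to 59.2 CPM in sham, 15.0, 11.6, 25.5, 30.5 and 23.9 in replicates 1 to 5 and 25.0 in replicate 6, with an overlap of the groups. Col4a5, a collagen of basement membranes, fell by 0.46 (SE 0.116). The list had 4 calls without UNx replicate 1 or 4 and 13 without UNx replicate 3. Of 8 tested fibroblast markers 4 fell, with sums of 270.1 to 423 CPM in sham, 161 to 366 in replicates 1 to 5 and 297 in replicate 6. These 4 were Dcn, Lum, Gsn and Pdgfra, of which Dcn and Lum are also among the 7 matrix genes that fell. Col1a1, Col1a2, Fbln5 and Postn were not called. Whether the lower markers mean fewer fibroblasts in the section was not tested. Of 32 genes of cytoskeleton and adhesion 6 rose (18.8%) and 8 fell (25%), with Itgav, an integrin, at −0.43.

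Of 20 clock genes 7 fell (35%, against 16% of all genes) and 1, Npas2, rose (5%). Per3 had 14.7 to 29.4 CPM in sham, 9.35 to 14.5 in replicates 1 to 5 and 16.2 in replicate 6, and was called at 72 h as well. Rora fell by 0.37 (SE 0.0825). Npas2 was at −0.21 in replicate 6, and the list had 4 calls without sham replicate 6 and 5 without UNx replicate 1 or 5. Of 21 interferon genes Ifi27 and Ifit2 fell (9.52%, below the share over all genes) and 0 rose. Of 7 red blood cell genes Alas2, which starts heme synthesis in red cell precursors, and Hbb-bt fell, at −0.86 each, with sums of the 5 red cell markers of 415 to 956 CPM in sham, 254 to 639 in replicates 1 to 5 and 532 in replicate 6. Hbb-bt has a near-identical neighbour that can share its reads, and neither gene was called without sham replicate 5 or 6 or UNx replicate 1, 2 or 3. Of 7 tested long non-coding RNAs on a list named for retention in the nucleus 5 fell (71.4%, against 16% of all genes). These were Malat1, Neat1, Snhg1, Snhg11 and Gas5, and where in the cell they lie was not measured. The median of the list was −0.72 in replicates 1 to 5, −0.14 in replicate 6 and 0.04 at 72 h. Malat1 had 165 to 253 CPM in sham, 124, 123, 118, 99.8 and 119 in replicates 1 to 5 and 179 in replicate 6, and the 2 kinds of library differed (edgeR adjusted p 0.0393). Neat1 fell by 0.73 (SE 0.172). Of 9 tested adipose genes 0 passed the test in edgeR, and 3 did without UNx replicate 5.

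**Figure D4:**
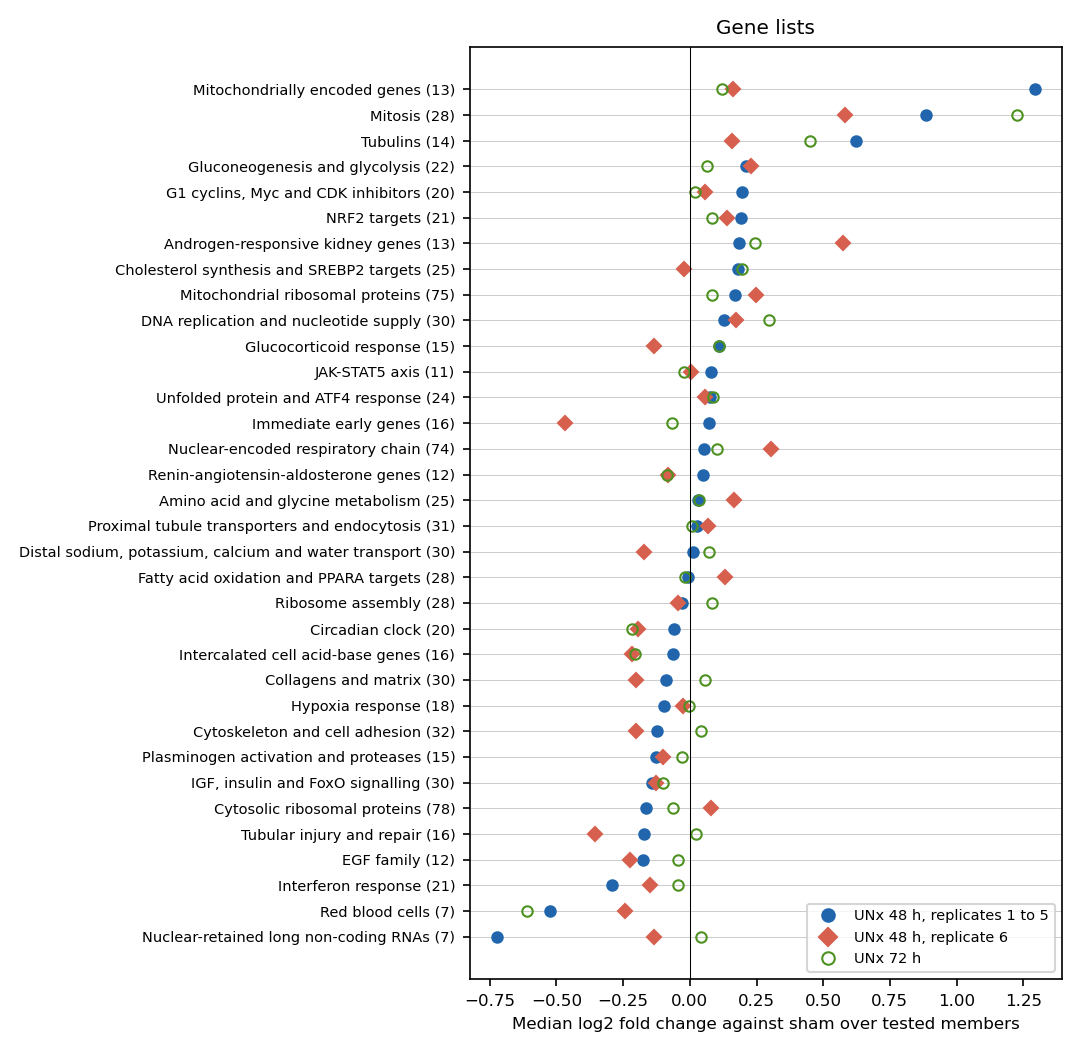
Median log2 fold change against sham over the tested members of each gene list (number in brackets) in UNx replicates 1 to 5 of 48 h, UNx replicate 6 of 48 h and the 6 UNx libraries of 72 h, each against the shams of its time; the adipose list is left out for scale. Mitosis is high in each, while mitochondrially encoded genes stand at 1.29 in replicates 1 to 5 and at 0.16 in replicate 6.

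Calls of 48 h moved with the length of the gene. Protein-coding genes were split into 4 bins of equal size by annotated exon length, the merged length of all exons in GENCODE M21. In the shortest bin, up to 2841 bases, 27.2% of 3322 genes rose and 7.68% fell, and in the longest, from 6859 bases, 7.89% rose and 27.4% fell. The median log2 fold change went from 0.09 to −0.13 across the bins in replicates 1 to 5 and from 0.11 to −0.15 in replicate 6. At 72 h it went from 0.02 to −0.02. Both are set against the same shams, so their likeness is not a result. The pattern touches the lists of short genes (ribosomal, respiratory chain, tubulin) and of long ones (19 of 30 matrix members and Ahnak in the longest bin). Its part in their calls was not tested.

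**Figure D5:**
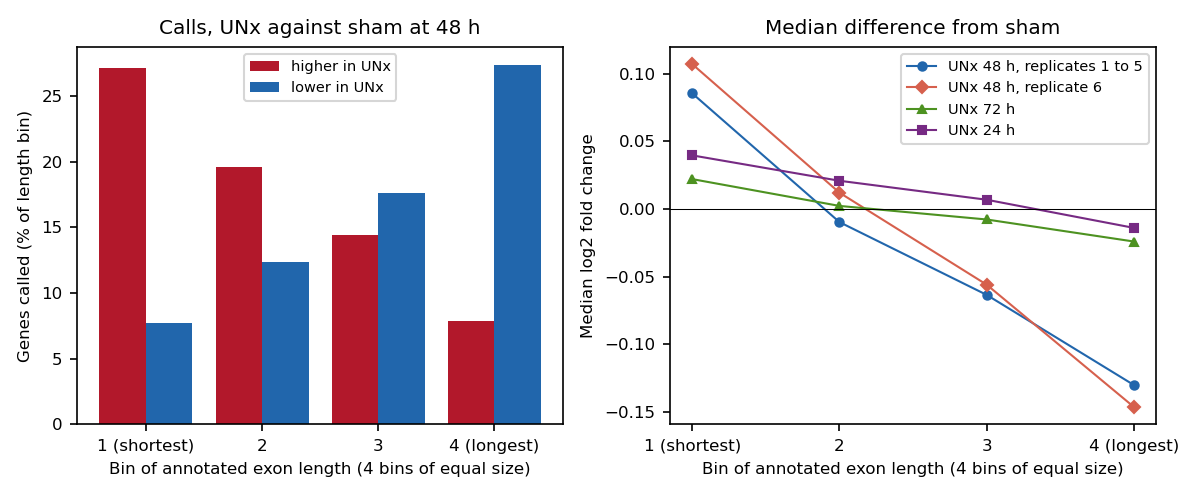
Left, percentage of protein-coding genes called higher or lower in UNx at 48 h in each of 4 bins of annotated exon length; right, median log2 fold change against sham in each bin for both kinds of UNx library of 48 h and for UNx at 72 h and 24 h. From the shortest to the longest bin the share of rises goes from 27.2% to 7.89% and that of falls from 7.68% to 27.4%.

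Genes were also sorted by the nucleus class of 2 sham kidneys of 24 h in which their level was highest, over 24 classes. Genes highest in the proximal tubule classes rose more often than they fell. The shares were 22.1% and 8.4% of 488 genes for S1, 24.1% and 9.6% of 448 for S2, and 21.1% and 9.73% of 658 for S3, against 16.9% and 16% of all tested genes. Genes highest in fibroblasts (7.43% higher, 15% lower of 565) and in medullary principal cells (9.84% higher, 20.7% lower of 569) fell more often. The medians in replicates 1 to 5 ran from 0.02 in S3 to 0.05 in S1 and were −0.13 in fibroblasts. Nuclei hold another RNA pool than whole tissue and came from other mice, so the classes only sort the genes.

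The UNx effect was then compared between times by an interaction term. The effect at 72 h differed from that at 48 h in 1811 of 14918 genes (12.1%). At 72 h it was above that of 48 h in 693 (4.65%) and below it in 1118 (7.49%). Without UNx replicate 6, 3648 were called. Bola3, which helps insert iron-sulfur clusters, had 27.9 to 33.9 CPM in sham of 48 h, 75.1 to 88.4 in replicates 1 to 5 and 43.2 in replicate 6. The UNx effect on it went from 1.27 at 48 h to 0.14 at 72 h on the log2 scale, a difference of −1.15 (SE 0.161, edgeR adjusted p 0.00164). Tomm6, a small subunit of the import pore of the outer mitochondrial membrane, differed by −1.04 (SE 0.152) and Mrps15 by −0.75 (SE 0.107). More positive at 72 h were Cybc1, a chaperone of the phagocyte oxidase, by 0.64 (SE 0.108), Pfkfb2, which sets the glycolytic regulator fructose bisphosphate, by 0.55 (SE 0.0869), and Bcl2l2, an anti-apoptotic protein, by 0.43 (SE 0.0741). These 3 fell at 48 h and lay within 0.14 of sham on the log2 scale at 72 h. Of the mitosis list 0 of 28 differed between the times, of the mitochondrial ribosomal list 24 were lower and 1 higher at 72 h, and of the mitochondrially encoded list 8 and 1.

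Between 24 h and 48 h the interaction passed in 5587 of 15093 genes (37%), with the effect of 24 h above that of 48 h in 2673 (17.7%) and below it in 2914 (19.3%). Time and labelled batch cannot be told apart in this comparison, and the libraries of UNx and sham differed in profile in opposite directions at the 2 times. Ubxn1, a cofactor of the segregase p97, had a UNx effect of −0.73 (log2) at 24 h and of 0.72 at 48 h. At 48 h it lay at 62.6 to 71.2 CPM in sham, 104 to 130.5 in replicates 1 to 5 and 72.7 in replicate 6. Kiz, a centrosome protein, was at −0.56 and 0.42 and Tomm6 at −0.71 and 1.12 in the same order. Gna13, a G protein subunit, was at 0.37 and −0.38, Sdcbp, the adaptor syntenin, at 0.59 and −0.67, and Rpl9 at 0.79 and −0.47. Sdcbp and Rpl9 in replicate 6 lay inside the sham range. Holding the profile score constant left 1 gene called by edgeR in this comparison and 0 in that of 72 h with 48 h, and 1557 and 1081 had an unadjusted p under 0.05.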

How the data were processed

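Bulk RNA was measured in 36 libraries, of which 12 are of 48 h. The deposited values are estimated counts per Ensembl gene, not normalized; GRCm39 is the build, and Salmon 1.5.0, R 4.10 and FastQC 0.11.8 are the tools, that the submitters' notes list, with settings not given in the sources used here. Salmon shares reads between alike transcripts, so 34.1% of the values are not whole, and they were rounded before testing. Groups, times and replicate numbers came from the labels. Symbols came from GENCODE M21, which named 28340 of 28467 genes; it belongs to another build, so no bulk coordinates are given. The nuclei of 2 sham mice (7983 nuclei, deposited estimated counts from alevin, build mm10 per the notes) were summed by the authors' deposited class and mouse, over 24 classes with at least 10 nuclei in each mouse, and a gene's class needed 20 counts in all. No doublet caller was run.

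Genes were tested with edgeR 4.0.16 in R 4.3.3 (filterByExpr, TMM factors, quasi-likelihood test, two-sided) at a Benjamini-Hochberg adjusted p of 0.05, over all genes tested. The fit of 48 h used its 12 libraries, with UNx as 1 group or as replicates 1 to 5 and replicate 6. Differences from 72 h used the 24 libraries of batch 2, and from 24 h all 36. Adjusted p-values in the text are edgeR's unless another tool is named. A standard error is the log2 fold change over the root of its F statistic. Alternatives used DESeq2 1.42.0 and limma 3.58.1 (voom). The script was tested on simulated data. A chi-square check over 30 replicate pairs of 48 h gave at least 5.35 per gene, so each library counts as 1 replicate, and p-values measure the spread between these mice. Samples are separate mice per the labels, and replicate numbers did not pair them.

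Named genes were, at a mean log2 CPM of at least 3, the 10 largest rises and 10 largest falls shared with replicate 6, the 6 and 6 with replicate 6 inside the sham range, the 2 called members with the lowest p per list, and the 3 lowest p per direction of each time difference. Of these, 1 gene is not reported here. The libraries, the 36 lists and 20 marker lists were chosen with earlier results of these data known, so no list was tested as a set. Outside the lists, unnamed and predicted genes, pseudogenes and mitochondrially encoded genes were passed over.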

Additional observations from a re-analysis of the deposited data

Results flagged for a closer look

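The measures of the libraries and the levels of named genes were checked for 1 library that stands apart in its group of 6, by the gap to its nearest neighbour over the range of the group. Of 216 groups 29 passed the limit, 17 of them through UNx replicate 6 and 12 through other libraries. Chance marks about 1 in 20 groups. UNx replicate 6 had a mitochondrial share of 15.2% where the UNx median was 26.1%, and a profile score of 0.0404 where the median was 0.668. Its level of Hcfc1r1 was 33.8 CPM, with a UNx median of 91.2. Rpl10 was at 109 CPM in it, Rpl22l1 at 20.6, Bok at 15.2, Snrpg at 12.0, Tmsb4x at 132 and Rpl24 at 139, each above the other UNx libraries. Those 7 genes were chosen for the level of replicate 6. mt-Nd1 stood at 15221 CPM in replicate 6, Gpi1 at 374, Bola3 at 43.2 and Tomm6 at 47.3, each below the rest of its group. Foxo4 at 29.0 CPM, Malat1 at 179, Gna13 at 63.7 and Sdcbp at 116 were above it.

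Among the other libraries, sham replicate 1 had the largest total of the 6 shams, 20.9 M. Sham replicate 4 was high in Cdca3 at 7.74 CPM, Ube2c at 3.44, Tyms at 14.9 and Amn at 75.0. The first 3 are genes of cell division. UNx replicate 1 was low in Ahnak at 31.8 CPM, and UNx replicate 4 in Insr at 62.2. UNx replicate 3 was high in Spp1 at 1032 CPM and low in Cyp2e1, a cytochrome P450 oxidase, at 774. Jak2 was high in sham replicate 5 at 35.0 CPM and Ifi27 in sham replicate 3 at 32.2. Sdcbp was low in sham replicate 2 at 104.9 CPM.

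The UNx effect differed between times by the interaction test in 1811 genes for 72 h against 48 h and in 5587 for 24 h against 48 h. As the log2 effect at 72 h minus that at 48 h, Mrps15 was at −0.75, Bola3 at −1.15, Tomm6 at −1.04, Pfkfb2 at 0.55, Cybc1 at 0.64 and Bcl2l2 at 0.43. As the effect at 24 h minus that at 48 h, Tomm6 was at −1.86, Ubxn1 at −1.47, Kiz at −1.02, Gna13 at 0.72, Sdcbp at 1.23 and Rpl9 at 1.23. UNx replicates 1 to 5 carry another library profile than the shams of 48 h, and its part in these differences was not tested.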

How the results depend on the processing

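The count of genes called between UNx and sham, 4696, was 4992 with DESeq2, 4674 with limma voom and 4404 with the replicate number as a block. Leaving out single libraries gave 3727 (without UNx replicate 1) to 6004 (without UNx replicate 6). It was 44 when a log2 change of at least 0.5 was the null limit, and 0 with the profile score as a covariate, where 2109 had an unadjusted p under 0.05. For replicates 1 to 5 against sham the covariate gave 0 (2602 unadjusted), and leaving out single libraries 5392 to 6044. Replicate 6 against sham gave 112 with DESeq2, 1 with limma voom, 1 with all 36 libraries in the fit, and 0 in edgeR whichever library was left out. Replicates 1 to 5 against replicate 6 gave 10 with the replicate block and 1420 to 1840 with single libraries left out. In that block replicate 6 is compared only through the sham of its own number. The difference between 72 h and 48 h gave 1207 without a filter on low counts, 0 with the covariate (1081 unadjusted) and 1285 (without UNx replicate 1) to 3648 (without UNx replicate 6). That between 24 h and 48 h gave 1 with the covariate (1557 unadjusted) and 5183 to 6320 with single libraries left out. Why the counts moved was not tested, save that the covariate is nearly the same split as UNx replicates 1 to 5 against the other libraries.

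With the covariate, Rpl22l1 in replicates 1 to 5 against sham turned from −2.10 to 0.16 (edgeR adjusted p 0.927) and Rpl24 from −1.03 to 0.31 (adjusted p 0.808). That fit left out replicate 6. Its highest sham score was 0.0937 and its lowest UNx score 0.656. The UNx term is thus an extrapolation, and its sign and size are not read. No other gene of the second group turned in any setting. Slc51b, at 1.04 in the main fit, ran up to 4.59 over the settings. Of 83 named genes, 83 lost their call between UNx and sham with the covariate and 75 with the limit of 0.5. The replicate block and limma voom each lost 1, no filter 3, and leaving out single libraries 0 to 6. Same-numbered libraries did not deviate together. The correlations of their deviations ran from −0.142 to 0.0739, and 0 of 6 shams correlated best with the UNx library of their number. The share of calls that were higher was 51.4%, and 50.1% to 56.9% under the other scalings and tools. Genes at a few CPM, such as Ube2c and Ccne2, rest on few counts, and replicate 6 is 1 mouse.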
